A study of Mus musculus with 24 samples.

Results

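Cd74, H2-Aa, H2-Ab1, H2-Eb1, Cd79a, Cd79b, Ms4a1, Ighm and Ebf1 are genes of B lymphocytes and of antigen presentation on major histocompatibility complex (MHC) class II, and they were measured here in libraries made from isolated T cells. They were taken by gene symbol, 4 as class II members and 5 as B cell members, and make up 9 of the 34113 genes in the deposited table. All 9 had counts in every one of the 24 libraries and passed the filter on low counts in every fit. The mice were C57BL/6N and either Atmwt/wt (WT) or Atm-/- (KO), where Atm encodes a kinase that signals DNA breaks. Within each genotype, mice had either been transplanted with B-cell lymphoma (lymphoma) or received no transplant (control). CD4 and CD8 T cell libraries were made from spleen, which gave 8 groups of 3 libraries. The CD4 and CD8 libraries with the same group and number came from the same mice, with 22 mice in 12 pools. A WT lymphoma pool was 1 mouse, so the 3 replicates of that group are single animals, while the other pools held 2 or 3 mice. The labels name neither the Atm allele, nor the age of the mice, nor the origin of the transplanted cells, nor the step that separated CD4 from CD8 cells.

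MHC class II molecules are pairs of an alpha and a beta chain that present peptides to CD4 T cells. The invariant chain, encoded by Cd74, holds the groove closed until the pair reaches the compartment where peptides are loaded. In the mouse spleen, B cells, dendritic cells and some macrophages make class II, whereas mouse T cells make little or none. The B cell members encode parts of the B cell receptor, a surface protein of mature B cells and a transcription factor that sets B cell identity. The isolation kit named in the labels enriches T cells by removing other cells, B cells among them, with antibodies.

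The libraries held 6470482 to 10196062 counts each, and levels below are in CPM, the count of a gene after each library is scaled to the same total. A count of 0 would allow at most 0.294 to 0.464 CPM (3 counts of the library total, which covers counting error only), and the lowest member value was 6 counts, for Cd79a in CD8 WT control 1. The co-receptor labels fitted Cd4 (71.1 to 134 CPM in the 12 CD4 and 1.46 to 7.94 CPM in the 12 CD8 libraries) and Cd8a (2.84 to 22.5 CPM in CD4 and 142 to 534 CPM in CD8 libraries). Among the CD8 libraries, CD8 KO lymphoma 1 had the highest Cd4, the lowest Cd8a and the lowest Cd3e. Atm tags were counted at 117 to 210.4 CPM in WT libraries and 26.9 to 107 CPM in KO libraries. A 3′ tag need not lie in a disrupted part of a gene, so this checks the genotype labels only in part.

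All 9 members were detected in every T cell group, and the top and the bottom of their order were the same in all 24 libraries. Ighm, the constant region of the IgM heavy chain, was the most abundant of the 9 in all 24 libraries, from 148 CPM in CD8 WT lymphoma 3 to 843 CPM in CD8 KO lymphoma 1. Cd79a, the Ig-alpha chain that carries signals from the B cell receptor, was the least abundant in all 24, from 0.873 to 74.0 CPM. H2-Aa, the alpha chain of the class II molecule I-A, ranked second in 22 libraries. The middle of the order moved, and Cd79b took ranks from 3 to 8. The libraries were made from the 3′ ends of transcripts, so CPM counts transcript ends and these levels need no scaling by length.

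Each member varied several-fold between libraries, and Ighm varied least. The highest value exceeded the lowest 5.69-fold for Ighm, 25.3-fold for Ebf1, 25.9-fold for H2-Aa, 33.0-fold for H2-Eb1, 33.1-fold for Cd79b, 34.6-fold for Cd74, 44.9-fold for H2-Ab1, 84.7-fold for Cd79a and 92.7-fold for Ms4a1. For all 9 the highest library was CD8 KO lymphoma 1, which stood 1.18-fold (H2-Aa) to 2.64-fold (Cd79a) above the next. The lowest library was CD8 WT control 1 for the 4 class II members and Cd79a, CD4 WT control 1 for Cd79b and Ebf1, CD8 KO lymphoma 3 for Ms4a1 and CD8 WT lymphoma 3 for Ighm.

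**Figure D1:**
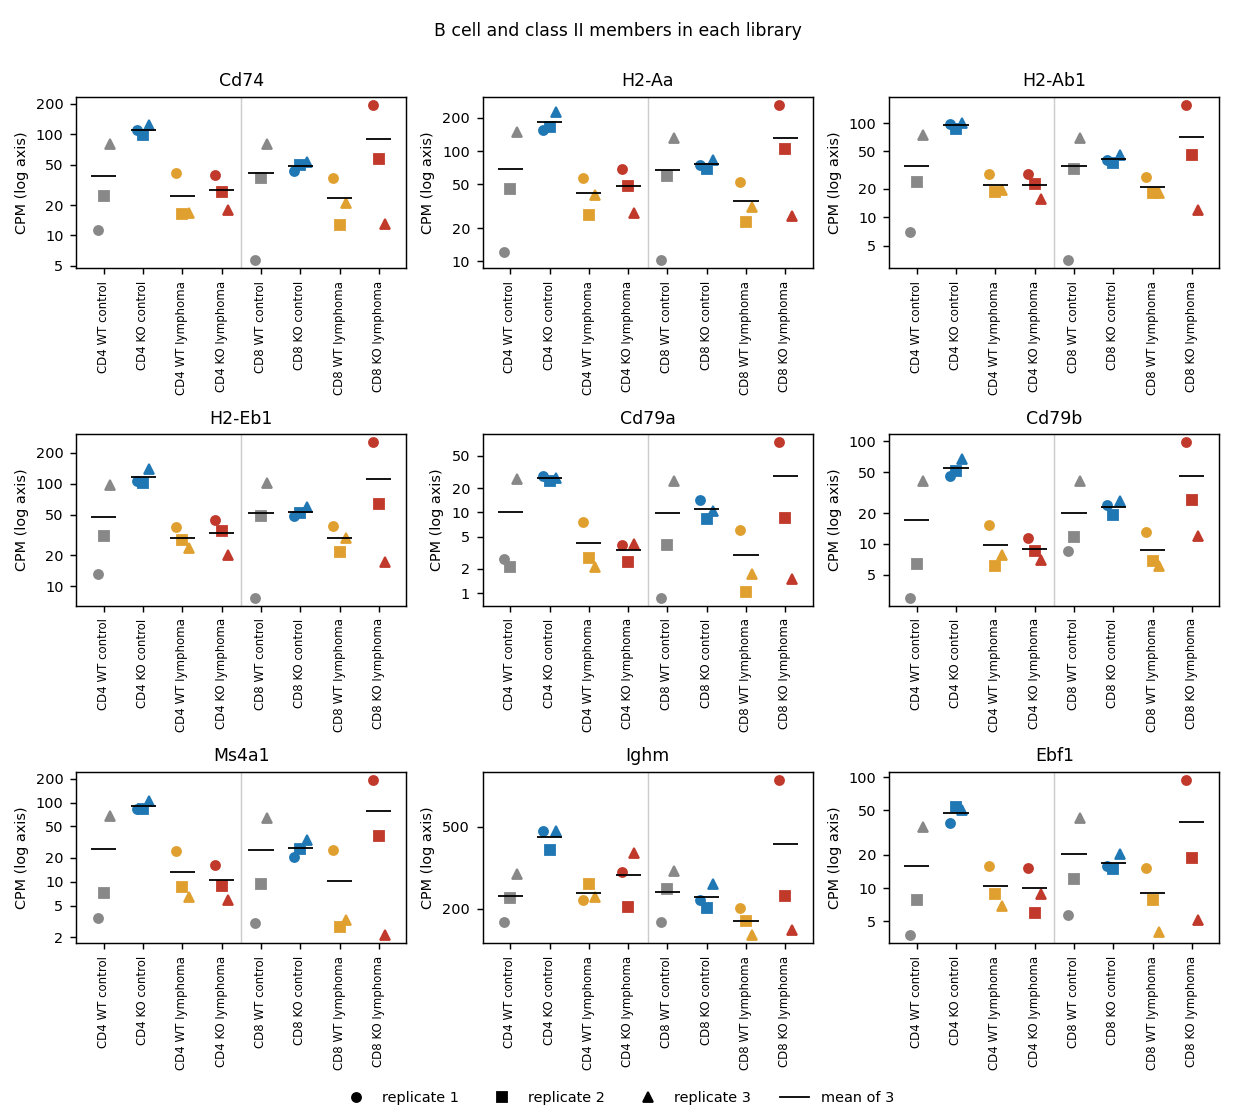
Level of each of the 9 members in the 24 libraries, in CPM on a log axis, by group, with a different marker for each replicate number and a bar at the mean of 3. The 3 CD4 KO control libraries lie close together and high, WT control 3 lies near them in both CD4 and CD8, and CD8 KO lymphoma 1 is the highest point in every panel.

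The group means followed nearly the same order for all members. CD4 KO control had the highest mean of the 8 groups for 8 of 9 members, and CD8 KO lymphoma had the highest for Cd79a. CD8 WT lymphoma had the lowest mean for 8 of 9, and CD4 WT lymphoma had the lowest for H2-Eb1. Summed over the 4 class II members, the means (± SD, n = 3) were 503 ± 73.8 CPM in CD4 KO control, 403 ± 418 in CD8 KO lymphoma, 219 ± 20.1 in CD8 KO control, 196 ± 179 in CD8 WT control, 190 ± 187 in CD4 WT control, 132 ± 50 in CD4 KO lymphoma, 118 ± 40.5 in CD4 WT lymphoma and 110.0 ± 41.0 in CD8 WT lymphoma. Neighbouring groups in this order overlapped in every case, so the order of neighbours is not separated by these libraries. In both KO control groups the SD was a small share of the mean, while in both WT control groups and in CD8 KO lymphoma it was close to the mean or above it.

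The class II members were described first. The 3 chain genes lie close together on chromosome 17 (positions from GENCODE M21 on GRCm38), and Cd74 lies elsewhere. H2-Ab1, the beta chain of I-A, is at chr17:34257689-34269419 on the plus strand, and H2-Aa is at chr17:34282744-34287823 on the minus strand. H2-Eb1, the beta chain of the class II molecule I-E, is at chr17:34305867-34316674 on the plus strand. C57BL/6 mice carry a defective I-E alpha gene and show no I-E on the cell surface, although the beta chain is transcribed. In the deposited table the alpha gene, listed as H2-Ea-ps, had 1 count over all 24 libraries, while H2-Eb1 averaged 59.1 CPM.

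The shares of the class II sum were steady. Over the 24 libraries H2-Aa gave 28.0 to 40.3% of the class II sum, H2-Eb1 22.4 to 31.6%, Cd74 16.8 to 25.9% and H2-Ab1 12.9 to 23.9%. The sum itself ran from 27.1 to 871 CPM, a 32.2-fold range. Class II genes thus changed level together from library to library. The start regions of their genes are shown as a description, and any part of these sequences in the shared changes was not tested. RefSeq start regions on GRCm38.p6 were found for 4 of the 9 members, and the 250 bases before the start are printed for the 2 class II members among them, H2-Aa (chr17:34287824-34288073, minus strand) and H2-Eb1 (chr17:34305617-34305866, plus strand). Capitals mark the letters CTGATTGG, the palindrome TGACGTCA formed by TGACG and its reverse complement CGTCA, and a second CCAAT.
H2-Aa: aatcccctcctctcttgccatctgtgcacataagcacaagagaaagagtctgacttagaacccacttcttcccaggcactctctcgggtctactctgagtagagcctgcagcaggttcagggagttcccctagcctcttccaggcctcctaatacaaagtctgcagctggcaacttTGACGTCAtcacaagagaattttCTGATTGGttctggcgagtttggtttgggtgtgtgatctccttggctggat
H2-Eb1: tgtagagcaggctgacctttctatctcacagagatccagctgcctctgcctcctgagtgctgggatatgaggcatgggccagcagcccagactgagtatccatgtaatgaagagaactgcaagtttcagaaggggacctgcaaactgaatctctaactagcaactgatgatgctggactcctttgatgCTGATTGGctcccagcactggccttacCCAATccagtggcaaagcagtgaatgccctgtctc
Both windows hold CTGATTGG on the strand of the gene, at -51 to -44 in H2-Aa and -62 to -55 in H2-Eb1, counted back from the start. These letters contain the reverse complement of CCAAT, and they are known from class II promoters as the Y box. Among 32851 RefSeq start regions of the same length, 3.83% hold CTGATTGG on either strand, 33.8% hold CCAAT and 17.8% hold TGACG. CTGATTGG was searched after these sequences had been seen, so its presence is a description only. The windows of Cd79a and of Ebf1, which has 2 starts in the table, held none of these motifs on either strand. Unlike the 2 printed windows, they lie partly (Cd79a) or wholly (Ebf1) inside the gene positions of GENCODE M21. None of the 4 genes' windows held the exact octamer ATGCAAAT (1.60% of all start regions) or exact CCCNNGGG (11.8%), the core letters bound by EBF factors. Near matches were not searched, and the Cd79a window holds ctcaaggg, which differs from CCCNNGGG by a single letter.

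The B cell members are spread over the genome. Cd79a is at chr7:24897381-24902197 on the plus strand, and Cd79b, the Ig-beta chain that pairs with it, is at chr11:106311341-106314762 on the minus strand. Ms4a1, which encodes the B cell surface protein CD20, is at chr19:11249675-11266241 on the minus strand. Ighm is at chr12:113418558-113422730 on the minus strand, and Ebf1, the transcription factor early B cell factor, is at chr11:44617317-45008091 on the plus strand. Genes on the opposite strand overlap H2-Eb1, Ms4a1 and Ebf1 in that annotation, none of them has a row in the deposited table, and the labels do not say whether counting used strand.

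Ighm did not follow the other B cell members in size. The sum of Cd79a, Cd79b, Ms4a1 and Ebf1 ran from 12.9 CPM in CD4 WT control 1 to 461 CPM in CD8 KO lymphoma 1, a 35.8-fold range against 5.69-fold for Ighm. Ighm therefore made up 63.4 to 93.5% of the summed B cell members. The ratio of Ighm to Cd79a was lowest, 11.4, in CD8 KO lymphoma 1 and highest, 197, in CD8 WT control 1. The highest ratio rests on only 6 counts of Cd79a, so its size is imprecise. CD4 KO lymphoma 3 had the highest ratio of Ighm to the 4 other B cell members, 14.5, with 373 CPM of Ighm against 25.8 CPM of the 4 together. That library also had 137 CPM of Jchain, which joins IgM and IgA units in plasma cells, and 342 CPM of Igkc, the kappa light chain constant region, against 91.7 and 28.7 CPM of Jchain and 160 and 81.1 CPM of Igkc in the other 2 CD4 KO lymphoma libraries. CD4 WT control 1 had nearly as high a ratio of Ighm to the 4 others, 13.4, with much less plasma cell RNA. The sum of 8 listed plasma cell genes was 86.0 CPM there and 399 CPM in CD4 KO lymphoma 3. In CD8 WT control 1, with the highest ratio of Ighm to Cd79a, that sum was 49.5 CPM. The part of plasma cells in these ratios was not tested. The table does not separate the membrane and secreted forms of Ighm.

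**Figure D2:**
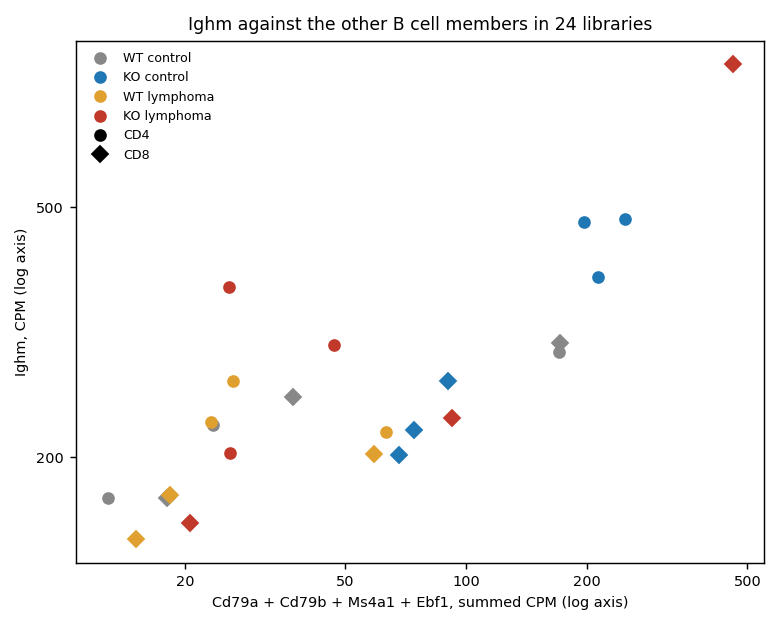
Ighm in CPM against the summed CPM of Cd79a, Cd79b, Ms4a1 and Ebf1 in the 24 libraries, both on log axes, with CD4 libraries as circles and CD8 libraries as diamonds. Ighm stays between 148 and 843 CPM while the other sum runs from 12.9 to 461 CPM.

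Across the 24 libraries the members went up and down together. Spearman's rho was 0.984 to 0.993 over the 6 pairs of class II members, 0.874 to 0.949 over the 6 pairs of Cd79a, Cd79b, Ms4a1 and Ebf1, and 0.890 to 0.964 over the 16 pairs between these sets. The 8 pairs with Ighm gave 0.624 to 0.80. Within the 12 CD4 libraries the pairs with Ighm gave 0.643 to 0.804, and within the 12 CD8 libraries 0.832 to 0.930. These values describe 24 libraries that share mice in pairs and differ in depth, so no p is given. The genes most like the mean of the B cell members were Tnfrsf13c, the receptor for the B cell survival factor BAFF (rho 0.978), Fcmr, an Fc receptor for IgM (0.975), Siglecg (0.971), Pax5, a transcription factor of B cell identity (0.970), Cd22 (0.968), H2-DMb2 (0.968), Fcer2a (0.961) and Ly6d (0.961). Those most like the mean of the class II members were Spib, a transcription factor of B cells and plasmacytoid dendritic cells (0.974), H2-DMb2 (0.963), Fcer2a (0.947), Ciita, the class II transactivator (0.943), Cr2 (0.942), Fcmr (0.942), Siglecg (0.940) and Fcrl1 (0.938). H2-DMb2, Fcer2a, Fcmr and Siglecg stood on both lists of 8. Csf1r, the receptor for a macrophage growth factor, ranged from 10.04 to 130 CPM.

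The first comparison asked how loss of Atm altered these genes in CD4 libraries of mice without lymphoma. All 9 members had higher means in KO than in WT controls, by 0.89 (Ighm) to 1.81 (Ms4a1) on the log2 scale with a median of 1.41, against a median of -0.01 over all 12808 genes. Ighm rose by 0.89 ± 0.20 (log2 ± SE, edgeR adjusted p = 0.0474), and the other 8 did not pass an adjusted p of 0.05 in edgeR's quasi-likelihood test. In this contrast 1.94% of all genes were called higher and 2.01% in either direction. In bulk libraries, more cells of a type and more RNA per cell cannot be told apart.

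Ighm was at 474, 387 and 478 CPM in the 3 KO controls and at 173, 225 and 294 CPM in the 3 WT controls. Cd74 was at 111, 98.5 and 124 CPM in KO and 11.3, 24.3 and 80.8 CPM in WT controls. Ms4a1 was at 83.0, 83.4 and 104 CPM in KO and 3.52, 7.17 and 66.9 CPM in WT controls. In each of these 3 genes every KO library lay above every WT library, and WT control 3 was the highest of the WT libraries. H2-Aa was at 157, 166 and 224 CPM in KO and 12.2, 45.4 and 148 CPM in WT controls. H2-Ab1 was at 98.1, 85.7 and 100.5 CPM in KO and 7.03, 23.8 and 74.2 CPM in WT controls. H2-Eb1 was at 106, 101 and 139 CPM in KO and 13.1, 30.8 and 97.5 CPM in WT controls. The 3 chains thus showed the pattern of Cd74, with WT control 1 lowest. Cd79b was at 46.5, 51.5 and 66.8 CPM in KO and 2.97, 6.36 and 41.6 CPM in WT controls. Ebf1 was at 38.9, 53.7 and 50.8 CPM in KO and 3.74, 7.86 and 35.4 CPM in WT controls. Cd79a was at 28.1, 24.6 and 26.8 CPM in KO and 2.64, 2.08 and 25.8 CPM in WT controls, so it alone overlapped. The groups did not overlap for 8 of 9 members, where 21.4% of all genes had every KO library above every WT library.

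The count of members called turned on WT control 3. Without that library 8 of 9 members passed (all but H2-Aa), with differences from 1.05 (Ighm) to 3.95 (Ms4a1) on the log2 scale and a median of 2.53, while 2.63% of all genes were called higher in that fit. The call for Ighm was lost without any single KO control, without WT control 1 or 2, and without any of 4 lymphoma libraries that share the fit, and its adjusted p over all alternatives ran from 0.00287 to 0.244. The mouse identifiers begin with S or B, letters that the labels do not explain, and WT control 3 has B identifiers while WT controls 1 and 2 have S. Among B libraries the summed class II members were 1.29-fold and the 4 B cell members without Ighm 1.36-fold higher in KO (2 libraries) than in WT (1 library). Among S libraries the same ratios were 5.62 and 10.8 (1 KO library against 2 WT libraries). For Ighm the ratio was 1.47 among B and 2.38 among S libraries. Each set has 1 library on a side, so these ratios carry no test.

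Other cell type markers moved with the same contrast. All 14 macrophage and monocyte genes were higher in every CD4 KO control than in every WT control, where 21.4% of all genes were. Of the 14, 9 rose, among them C1qa, Csf1r, Cd68 and Ctsb. The summed level of the 14 was 1716 to 2280.1 CPM in KO and 683 to 1165 CPM in WT controls. Of 10 natural killer cell genes 2 rose (Eomes and Tyrobp), of 12 dendritic cell genes 1 rose (Irf8), and of 20 pan-T genes 1 fell (Trbc1). The other natural killer cell genes, Ncr1, Klrb1c and Klra8 among them, did not pass, although 8 of the 10 were higher in every KO library. Eomes averaged 61.1 CPM in CD8 and 14.3 CPM in CD4 WT controls. Irf8 had a rho of 0.717 with the summed Cd79a, Cd79b, Ms4a1 and Ebf1 over the 24 libraries. No gene of these lists was at 0 in all 3 libraries of any group. In WT control 3 the macrophage sum was 894 CPM, between those of the other 2 WT controls, while its dendritic cell sum of 205 CPM (113 and 164 CPM in the other 2), its natural killer cell sum of 442.5 CPM (120 and 222 CPM) and its class II sum of 401 CPM were the highest of the 3. The part of these cell types in the member values was not tested.

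A wider list of 26 B cell genes that are no members was also higher in KO controls, and WT control 3 again stood apart. The sum of the 26 was 1025 to 1248 CPM in KO controls and 245, 298 and 919 CPM in WT controls 1, 2 and 3. Of the 26, 2 rose in CD4 KO controls, Cd83 by 1.69 ± 0.23 (log2 ± SE, edgeR adjusted p = 0.0177), a surface protein of activated B cells and dendritic cells, and Cd38, an enzyme on the surface of many lymphocytes, by 1.55 ± 0.22 (edgeR adjusted p = 0.0180). The median difference of the list was 1.53 on the log2 scale, and in 17 of 26 every KO library lay above every WT library. Over all genes that share was 21.4%, which also applies to the lists that follow. Spib (113 against 31.7 CPM on average), Pou2af1 (109 against 43.0) and Ralgps2 (141 against 111) were among its most abundant genes and did not pass. Of 15 tested genes of the class II pathway none passed, with a median of 0.79 and 9 of 15 without overlap. Ctss, a protease that trims the invariant chain, averaged 443 CPM in KO and 294 CPM in WT controls, and Ciita 34.7 and 12.9 CPM. Of 9 tested immunoglobulin constant genes none passed, with a median of 1.42, and Igkc averaged 269 and 95.9 CPM. Of 6 tested plasma cell genes none passed, although all 6 were higher in every KO library, with a median of 1.0. Of 4 tested germinal centre B cell genes none passed, with a median of 0.59.

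In CD8 controls the KO and WT libraries overlapped for all 9 members. The KO minus WT differences ran from -0.20 to 0.28 on the log2 scale, and no member passed in edgeR, DESeq2 or limma voom or had an unadjusted p under 0.05 in edgeR, where 0.522% of genes were called. H2-Aa was at 74.8, 68.8 and 83.4 CPM in CD8 KO controls and at 10.18, 59.9 and 131 CPM in CD8 WT controls, so the KO libraries lay inside the range of the WT libraries. Ms4a1 was at 20.5, 25.9 and 33.5 CPM in KO and at 3.06, 9.46 and 63.4 CPM in WT controls, with the same arrangement. By identifier letter, the KO to WT ratio of the summed class II members was 2.02 among S and 0.589 among B libraries. For the summed B cell members without Ighm it was 2.69 among S and 0.4635 among B libraries. Each set again has 1 library on a side, so these ratios carry no test. Whether the genotype difference itself differed between CD4 and CD8 cells was not tested.

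**Figure D3:**
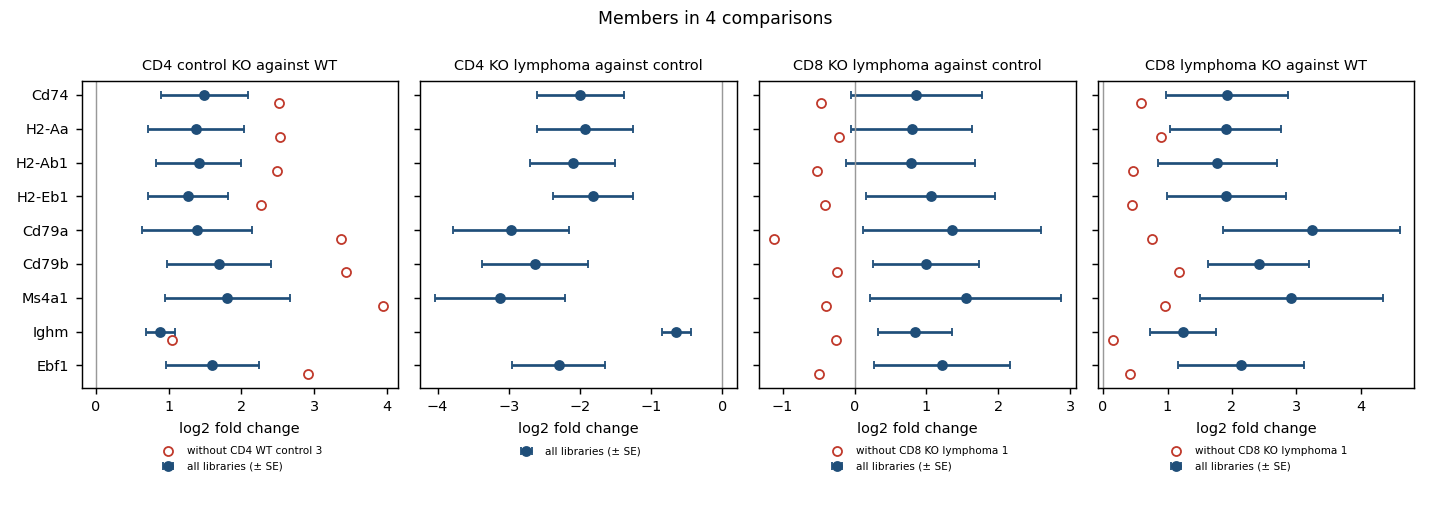
log2 fold change of each member in 4 comparisons, with filled points and bars (± SE) from all libraries of the fit and open points from the fit without 1 named library. Without CD4 WT control 3 the KO against WT difference in CD4 controls is larger for all 9 members, and without CD8 KO lymphoma 1 the lymphoma against control difference in CD8 KO cells is below 0 for all 9.

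The second comparison set lymphoma against control mice. In CD4 KO cells all 9 members had lower means with lymphoma, by -0.65 (Ighm) to -3.13 (Ms4a1) on the log2 scale, with a median of -2.10 against -0.01 over all genes. None passed in edgeR (adjusted p 0.175 to 0.229), where 0% of all genes were called in this contrast. All 9 had an unadjusted p under 0.05, as did 1953 of 12808 genes. DESeq2 called 4 of the 9 (H2-Ab1, H2-Eb1, Cd79b and Ebf1), limma voom called 1 (Ighm), and edgeR without CD4 WT control 3, which belongs to neither group but to the fit, called 2 (Cd79a and Cd79b). Of all genes, DESeq2 called 2.68%, limma voom 5.55% and edgeR without that library 0.153%.

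Every CD4 KO lymphoma library lay below every CD4 KO control for all 9 members, where 10.1% of all genes had every lymphoma library lower. Ms4a1 was at 16.5, 8.81 and 5.93 CPM with lymphoma, against the 83.0 to 104 CPM of the KO controls. Cd79a was at 3.94, 2.40 and 4.04 CPM, Cd79b at 11.3, 8.61 and 6.94 CPM, and Ebf1 at 15.04, 6.01 and 8.84 CPM. H2-Aa was at 68.7, 48.5 and 27.5 CPM, and Cd74 at 39.8, 26.8 and 17.8 CPM. The class II members were thus lower by smaller amounts, -1.82 to -2.10, than the 4 B cell members other than Ighm, -2.30 to -3.13, a difference between genes that was not tested. Ighm was at 302, 203 and 373 CPM, against a lowest control value of 387 CPM.

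Most of the 26 listed B cell genes followed in CD4 KO cells, but plasma cell and germinal centre B cell genes did not. Of the 26, 24 were lower in every lymphoma library than in every control, where 10.1% of all genes were. Their median was -1.55 on the log2 scale, and none passed. Of 15 class II pathway genes 7 were lower in every lymphoma library. Of 6 tested plasma cell genes and 4 tested germinal centre B cell genes none was, with medians of -0.19 and 0.35. H2-Ob averaged 14.5 CPM with lymphoma and 52.2 CPM in controls, and Ciita 7.09 and 34.7 CPM. Ctss was at 568 CPM with lymphoma, above its 443 CPM in controls. The macrophage sum was 2225 to 3067 CPM with lymphoma and 1716 to 2280.1 CPM in controls, a range mostly above that of the controls. The pan-T sum was 3076 to 5340 CPM with lymphoma and 5335 to 6086 CPM in controls, and the natural killer cell sum was 257 to 414 and 622 to 775 CPM. The dendritic cell sum was 210.4 to 267 and 258 to 308 CPM, although the median log2 difference of its 12 genes was 0.12. Irf8, the most abundant of the 12 in both groups, averaged 126.8 CPM with lymphoma and 166.5 CPM in controls. The part of these cell types in the member values was not tested.

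In CD4 WT cells no member separated the groups. The lymphoma minus control differences ran from -1.24 to -0.01 on the log2 scale, and no member passed in edgeR, DESeq2 or limma voom or had an unadjusted p under 0.05 in edgeR, where 1.69% of genes were called. Ms4a1 was at 24.4, 8.68 and 6.39 CPM with lymphoma, inside the 3.52 to 66.9 CPM of the WT controls. The KO minus WT difference of the lymphoma effects ran from -2.18 to -0.63, and none of the 9 passed in any of the 3 tools, while 1 had an unadjusted p under 0.05 and 0% of genes were called. Between KO and WT lymphoma mice the CD4 members differed by -0.38 to 0.26, again with none called by the 3 tools, none with an unadjusted p under 0.05 and 0% of genes called.

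In CD8 KO cells 1 library set the direction. The lymphoma minus control differences were 0.78 (H2-Ab1) to 1.54 (Ms4a1) on the log2 scale for all 9 members, and none passed in edgeR, DESeq2 or limma voom or had an unadjusted p under 0.05 in edgeR, where 2.18% of genes were called. Ms4a1 was at 194, 38.0 and 2.09 CPM with lymphoma, and at 20.5, 25.9 and 33.5 CPM in controls. Cd79a was at 74.0, 8.49 and 1.48 CPM with lymphoma, and at 14.1, 8.36 and 10.6 CPM in controls. The lymphoma libraries therefore lay above, near and below the controls. Without CD8 KO lymphoma 1 all 9 differences were below 0, from -1.12 (Cd79a) to -0.21 (H2-Aa), with none called.

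CD8 KO lymphoma 1 stood apart in more than the members. It had the highest sum of the 26 B cell genes among the 24 libraries, 2305 CPM, and the lowest sum of the 20 pan-T genes, 2096 CPM. Its macrophage sum of 2706 CPM lay above the 2121 and 2417 CPM of the other 2 CD8 KO lymphoma libraries, and its dendritic cell sum of 478 CPM above their 338 and 230 CPM. Irf8, the most abundant dendritic cell gene in the CD8 KO lymphoma group, averaged 183.8 ± 88.55 CPM (SD). Over the 24 libraries its rho with the summed Cd79a, Cd79b, Ms4a1 and Ebf1 was 0.717, so the dendritic cell sum is not separate from the B cell members. In CD8 KO cells with lymphoma, 18 of 20 pan-T genes were lower in every library than in every control (13.7% of all genes) and 4 fell (Cd3e, Cd2, Thy1 and Cd247), and Ctss rose by 0.87 ± 0.17 (log2 ± SE, edgeR adjusted p = 0.0360). H2-Aa was at 264 CPM, H2-Eb1 at 254 CPM, Cd74 at 196 CPM and H2-Ab1 at 157 CPM in this library, and Ighm at 843 CPM. Its pool carries an S and a B identifier, the only pool of the 12 with both letters.

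The remaining CD8 comparisons called no member. In WT cells the lymphoma minus control differences ran from -1.66 to -0.45, with none passing in the 3 tools, none with an unadjusted p under 0.05 and 1.42% of genes called. Between KO and WT lymphoma mice they ran from 1.24 (Ighm) to 3.24 (Cd79a), with none passing in the 3 tools, 3 with an unadjusted p under 0.05 (Cd79a, Cd79b and Ighm) and 0.245% of genes called. Cd79b was at 98.3, 27.0 and 11.8 CPM in KO lymphoma and at 13.0, 6.81 and 6.07 CPM in WT lymphoma, which overlapped by 1 library. Without CD8 KO lymphoma 1 these differences were 0.15 to 1.17. The KO minus WT difference of the lymphoma effects was 1.28 to 3.02, with none passing in the 3 tools, none with an unadjusted p under 0.05 and 0% of genes called.

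The CD4 and CD8 libraries of a pool come from the same mice, and the members often differed between them. In the 3 KO control pools every member was lower in the CD8 than in the CD4 library, with median CD8 to CD4 ratios over the 9 members of 0.460, 0.416 and 0.397. In the KO lymphoma pools the median ratios were 5.75, 2.17 and 0.726, and 9, 9 and 1 of the 9 members were higher in the CD8 library. In the WT control pools they were 0.835, 1.54 and 0.979, and in the WT lymphoma pools 0.920, 0.786 and 0.777. WT control 3 was therefore high in both of its libraries, whereas KO lymphoma 1 was high in the CD8 library alone.

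**Figure D4:**
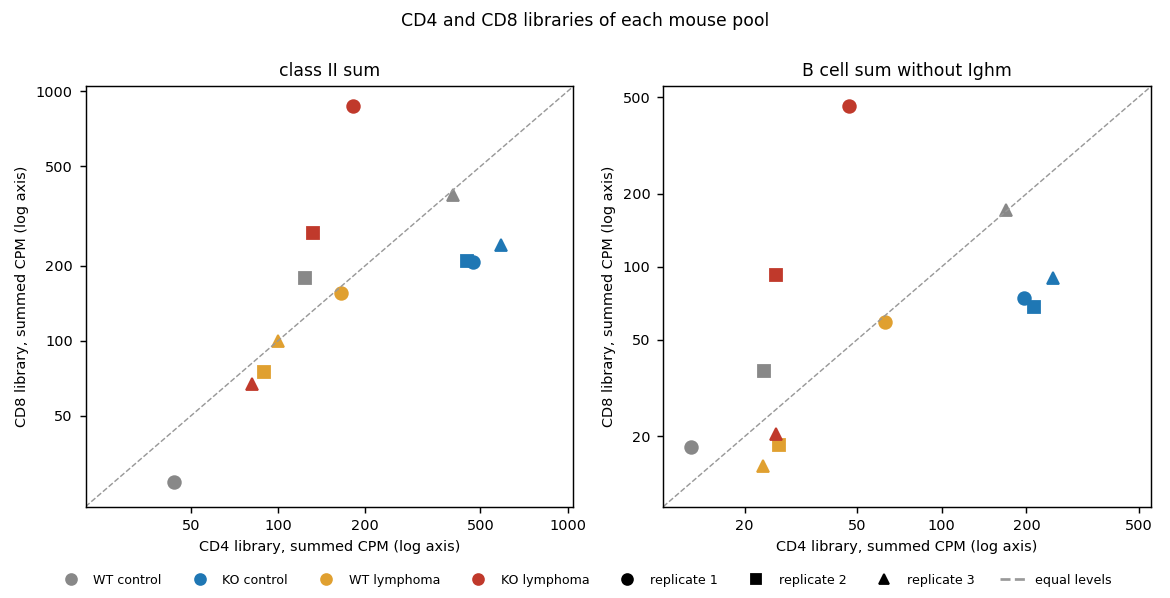
Summed CPM of the 4 class II members (left) and of Cd79a, Cd79b, Ms4a1 and Ebf1 (right) in the CD8 against the CD4 library of each of the 12 mouse pools, on log axes with a line of equal levels. The 3 KO control pools lie below the line and KO lymphoma 1 and 2 lie above it.

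In KO controls the CD8 minus CD4 differences were -0.87 (Ighm) to -1.66 (Ms4a1) on the log2 scale. None passed in the fit of all 24 libraries, where 4.95% of genes were called and 1 member, Ighm, had an unadjusted p under 0.05. DESeq2 called none and limma voom called 1 (Ighm), with 14.9% of all genes. The CD8 libraries lay below the CD4 libraries for all 9 members, where 24.5% of all genes did. With the mouse pool as a block 1 member passed (H2-Aa, -1.17), where 8.96% of all genes did. With the 6 KO control libraries fitted alone all 9 passed, where 10.9% of all genes did and 5.48% were called lower. Of the 26 listed B cell genes 25 lay lower in every CD8 library, and Tnfrsf13b changed by -1.0 ± 0.28 (log2 ± SE, edgeR adjusted p = 0.0396). The macrophage sum was 1461 to 1509 CPM in CD8 and 1716 to 2280.1 CPM in CD4 KO controls.

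In KO lymphoma the CD8 minus CD4 differences were 0.64 (Ighm) to 3.17 (Cd79a). None passed in the 3 tools, where 2.35% of genes were called in edgeR, and 7 members had an unadjusted p under 0.05. Cd79b was at 98.3, 27.0 and 11.8 CPM in CD8 and at 11.3, 8.61 and 6.94 CPM in CD4 libraries, the only member with no overlap, where 2.73% of genes had every CD8 library higher. With the mouse pool as a block Cd79b (2.04) and H2-Aa (1.16) passed, where 4.1% of all genes did. Without CD8 KO lymphoma 1 the differences were -0.46 (Ighm) to 1.23, with none called. Among the listed genes Cd72, a B cell surface protein, rose by 1.83 ± 0.40 (log2 ± SE, edgeR adjusted p = 0.0146), and H2-Oa, a chain of the class II modulator DO, by 1.79 ± 0.40 (edgeR adjusted p = 0.0138). Both genes were also higher in every CD8 than in every CD4 library of WT mice, Cd72 by 1.38 in controls and 1.19 with lymphoma, and H2-Oa by 1.36 and 1.30, without passing (edgeR adjusted p 0.0575 to 0.184). In KO controls neither gene was higher in every CD8 library. Cd72 averaged 58.55 CPM in CD8 and 53.82 CPM in CD4 KO controls, and H2-Oa 7.909 and 7.295 CPM.

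In WT mice the median differences between CD8 and CD4 libraries were 0.10 (control) and -0.15 (lymphoma) on the log2 scale. Over the members the CD8 minus CD4 differences ran from 0.02 to 0.43 in WT controls and from -0.42 to 0.07 in WT lymphoma. None passed in the 3 tools and none had an unadjusted p under 0.05, where 3.48% and 2.54% of genes were called. Ighm was at 202, 174 and 148 CPM in CD8 and at 219.6, 264 and 227 CPM in CD4 WT lymphoma libraries, the only member whose groups did not overlap there, where 14.7% of all genes lay lower in every CD8 library.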

How the data were processed

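Splenic T cells were isolated with a kit and libraries were made with the Lexogen QuantSeq 3′ FWD kit, per the labels' protocols. The deposited table holds estimated counts per gene with no normalization named. The submitters' processing notes name Salmon 0.11.3 and the human build GRCh38 without a role, although the symbols are mouse symbols. The labels do not say how the authors summarised estimated counts to genes. Of 34113 rows, 2 held a letter in place of a number and were dropped, and neither is a member. CPM used the remaining column totals.

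There was 1 fit for CD4 and 1 for CD8 libraries (12 in each, 8 residual degrees of freedom), and CD8 against CD4 used all 24 (16). Genes were kept with filterByExpr (minimum count 10, minimum total 15), which left 12808, 12650 and 13232 genes. Library sizes were adjusted by the trimmed mean of M values, and genes were tested with the robust quasi-likelihood test of edgeR 4.0.16, with Benjamini-Hochberg adjustment over all genes at 0.05. Fold changes are log2 ± SE. "Rose" and "fell" stand for tested changes, and the 3 tools are edgeR, DESeq2 1.42.0 and limma 3.58.1 voom with sample quality weights. The code was tested on simulated data.

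The members and gene lists were chosen with earlier results of these data known. All 9 members were named, and from each list up to 4 genes that passed, with the smallest p, or up to 3 with the highest CPM. Alternatives were other scaling, filters and tools, replicate or mouse pool blocks, other sets of libraries and each library left out. CD4 and CD8 libraries of a number pair by label, since they share mice (residual correlation -0.0181 to 0.525 over 12 pairs, 10 of them over 0.1). Same-numbered libraries of other mice gave -0.212 to 0.322 over 36 pairs, and the 3 pairs of WT and KO lymphoma in CD4 cells were each over 0.1 (0.214, 0.171 and 0.322).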

Additional observations from a re-analysis of the deposited data

Results flagged for a closer look

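Cd79b is the member for which CD8 and CD4 libraries went opposite ways in every KO library. In KO controls every CD8 library was below every CD4 library (23.9, 19.0 and 26.0 CPM against 46.5, 51.5 and 66.8 CPM), where 24.5% of all genes were. In KO lymphoma every CD8 library was above every CD4 library (98.3, 27.0 and 11.82 CPM against 11.34, 8.61 and 6.94 CPM), where 2.73% of all genes were. The lowest CD8 and the highest CD4 value were thus close, and the ratio of group means was 5.097. Without CD8 KO lymphoma 1 the log2 difference was 1.23, and it was not called. Whether the CD8 to CD4 difference itself differed between KO control and KO lymphoma was not tested.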

How the results depend on the processing

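For CD4 controls, KO against WT, the count of members called was 1, and it became 0 with DESeq2 size factors, 0 with upper-quartile factors, 0 in a fit of all 24 libraries and 5 with limma voom (11.6% of all genes), and ran from 0 to 8 with each library left out. For CD4 KO lymphoma against control the count was 0, with 4 by DESeq2, 1 by voom and 0 to 2 with each library left out. For CD8 against CD4 in KO controls it was 0, with 1 by voom, 1 with the mouse pool as a replicate block, 9 with only the 6 libraries and 0 to 1 with each library left out, 1 being reached without CD8 KO lymphoma 1. For CD8 against CD4 in KO lymphoma it was 0, with 2 under the mouse pool block. The cause was not tested. With the replicate number as a block within CD4 or CD8 cells the count stayed at 1 in CD4 controls and at 0 elsewhere. With each library left out, the log2 difference of CD8 KO lymphoma against control ran from -0.472 to 1.37 for Cd74, -0.213 to 1.28 for H2-Aa, -0.524 to 1.284 for H2-Ab1, -0.41 to 1.565 for H2-Eb1, -1.123 to 1.908 for Cd79a, -0.247 to 1.443 for Cd79b, -0.403 to 2.111 for Ms4a1, -0.253 to 1.224 for Ighm and -0.496 to 1.733 for Ebf1, and that of Ighm in CD8 against CD4 KO lymphoma from -0.458 to 1.032, each below 0 without CD8 KO lymphoma 1 alone. The group means of the members and their sums moved by less than 1 SD under their alternatives. Every member had counts in every library, so depth did not limit detection. The fits assume that all groups spread alike, which the SDs of the WT controls and of CD8 KO lymphoma do not bear out.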

Other observations

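Immunoglobulin constant genes other than Ighm did not all move with the B cell members. Ighg2b, the heavy chain constant region of IgG2b, averaged 24.5 ± 5.44 CPM (SD, n = 3) in CD4 WT lymphoma and 4.68 ± 3.30 CPM in CD4 WT control, and 17.7 ± 4.92 and 3.54 ± 3.03 CPM in the same CD8 groups. In CD8 KO cells it averaged 20.1 ± 18.2 CPM with lymphoma and 2.08 ± 0.394 CPM in controls. Every lymphoma library lay above every control in these 3 comparisons, where 16.4%, 14.2% and 14% of all genes did, and Ighg2b did not pass in any of them, with edgeR adjusted p of 0.150, 0.153 and 0.0574. In CD4 KO cells Ighg2b averaged 15.4 ± 13.0 CPM with lymphoma and 4.49 ± 1.60 CPM in controls, and these libraries overlapped (edgeR adjusted p = 0.298). For Ighg3 the groups likewise overlapped in CD4 KO cells and not in the other 3 comparisons, and it did not pass in any of them. Igha, the constant region of IgA, averaged 47.1 ± 20.2 CPM in CD4 KO control and 10.02 ± 7.44 CPM in CD4 KO lymphoma, and 28.3 ± 28.8 and 5.88 ± 1.06 CPM in CD8 WT control and lymphoma, with no call in either. Across the 24 libraries the rho with the summed Cd79a, Cd79b, Ms4a1 and Ebf1 was 0.952 for Iglc2 and 0.933 for Ighd, but 0.594 for Igkc, -0.043 for Ighg2b and -0.324 for Ighg2c. These values are descriptions, and no cause was tested.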
